A study of Mus musculus with 2 samples.

Results

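The blood-brain barrier genes described here are 10 genes found by symbol among 55536 annotated genes of a mouse cortex RNA-seq series. They are the tight junction genes Cldn5, Ocln and Tjp1, the carrier genes Slc2a1, Slc7a5, Slc3a2, Slco1a4 and Mfsd2a, and the efflux pump genes Abcb1a and Abcg2. The rule that took them used the listed symbols alone, and each symbol matched 1 gene identifier in the gene and transcript tables. The series holds 1 group of 2 samples of left cerebral cortex, taken from male B6CASTF1/J mice, the hybrid offspring of C57BL/6J and CAST/EiJ parents, at 25 days of age. No treatment is labelled. Each library was made from 300 ng of total RNA with ERCC spike-ins, and the labels name the samples biological replicate 2 (biobank number 04) and biological replicate 1 (biobank number 03). Both carry the same donor entry, so their coming from separate animals is an assumption, and an SD over n = 2 may hold only technical spread. With 1 group there was no contrast between conditions and no test, and a difference between the samples compares 2 libraries, with no replicate check.

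Brain capillary endothelial cells are sealed to each other by tight junctions, so that solutes cross through the cells and not between them. Nutrients then need carriers in the endothelial membranes, and efflux pumps return many lipid-soluble compounds to the blood. Pericytes, astrocyte endfeet and Wnt signals from neural cells are known to induce and keep this state. Endothelial cells are a small part of cortical tissue, and several of the 10 genes are also used by other brain cells, so a bulk level is a sum over cell types. In bulk tissue, fewer cells of a type and less RNA per cell cannot be told apart.

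The 10 genes all reached the detection level of 1 TPM in both samples, and 26.5% of all annotated genes did. TPM, or transcripts per 1000000 transcripts, is corrected for length, so levels can be set side by side between genes. The median of the 10 levels was 23.9 TPM in replicate 2 and 23.8 TPM in replicate 1. In the gene table Tjp1 and Slc3a2 were the most abundant, at 71.9 ± 10.3 and 71.0 ± 0.97 TPM (SD, n = 2), and their ranges overlapped. Slc2a1 followed at 50.2 ± 12.2 TPM, then Slc7a5 at 28.4 ± 0.46 TPM and Cldn5 at 27.97 ± 1.94 TPM, again with overlapping ranges. Slco1a4 at 20.1 ± 1.43 TPM and Mfsd2a at 18.3 ± 2.72 TPM could not be ordered either, nor could Abcg2 at 9.0 ± 0.30 TPM and Abcb1a at 8.60 ± 1.36 TPM. Ocln was the lowest, at 4.52 ± 0.19 TPM, under both values of every other gene. The order at the top differed in the second transcript table, where Slc3a2 was highest and Slc2a1, with 88.4 TPM in replicate 2 and 120 TPM in replicate 1, exceeded Tjp1, with 76.0 TPM in replicate 2 and 86.2 TPM in replicate 1. The genes thus spanned much of the expressed range, with 89.5% of the 14744 detected genes below Tjp1 and 24.5% below Ocln.

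**Figure D1:**
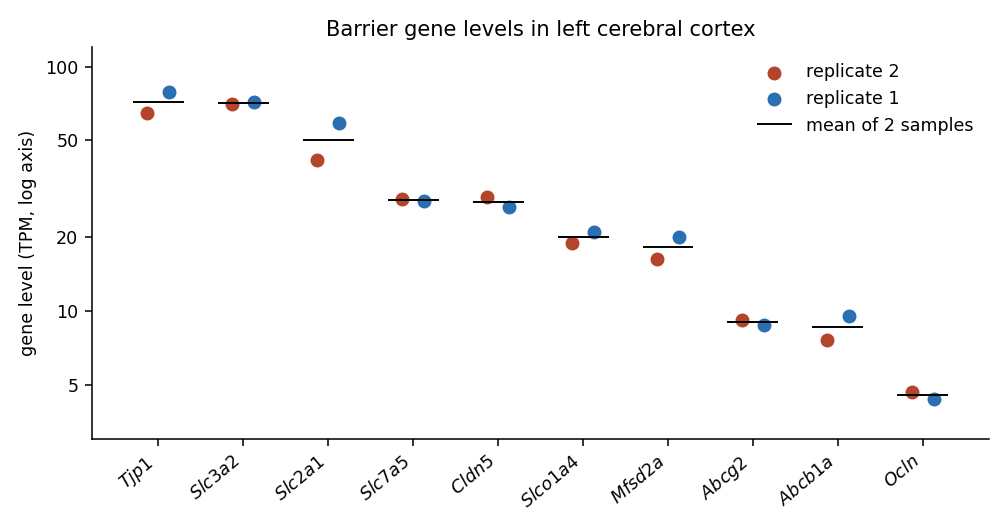
Gene level in TPM on a log axis for each of the 10 barrier genes, in order of the mean, with 1 point for replicate 2, 1 point for replicate 1 and a bar at their mean. Tjp1 and Slc3a2 lie at the top, and Ocln lies lowest at 4.65 TPM in replicate 2 against 4.38 TPM in replicate 1.

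Of the tight junction genes, Cldn5 encodes claudin-5, the claudin that seals brain endothelial junctions against small molecules. The gene (ENSMUSG00000041378.2, chromosome 16, 18776847 to 18778262, plus strand, mm10) has 1 annotated transcript with 1 exon. Cldn5 stood at 29.3 TPM on 870 expected counts in replicate 2 and at 26.6 TPM on 705 expected counts in replicate 1. Expected counts are read counts shared out among transcripts by the quantification program. Replicate 2 was thus slightly higher, by 0.14 on the log2 scale of TPM + 0.5, and by 0.18 on counts scaled by TMM, edgeR's correction for library size and makeup, with a 95% counting interval of 0.03 to 0.32. Such intervals hold counting error alone: reads counted without molecular tags may be copies of 1 molecule, and the spread between samples is not in them.

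Ocln encodes occludin, a membrane protein of the tight junction that is also found in other barrier epithelia. The gene (ENSMUSG00000021638.12, chromosome 13, 100496507 to 100552718, minus strand) stood at 4.65 TPM on 297 counts in replicate 2 and at 4.38 TPM on 251 counts in replicate 1. These counts were the fewest of the 10 genes, and the counting interval of the scaled difference, -0.13 to 0.37, spanned 0. All of its TPM lay in 3 transcripts, each with a coding sequence of 1563 bases, that differ in total length. Ocln-205 held 46.5% in replicate 2 and 40.9% in replicate 1, Ocln-201 held 30.3% and 36.8%, and Ocln-202 held 23.2% and 22.4%.

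Tjp1 encodes ZO-1, the cytoplasmic scaffold that ties junction proteins to actin, and it is used at cell contacts well beyond the endothelium. The gene (ENSMUSG00000030516.14, chromosome 7, 65296165 to 65527781, minus strand) stood at 64.6 TPM on 4942 counts in replicate 2 and at 79.2 TPM on 5062 counts in replicate 1. Replicate 2 was lower by TPM, at a log2 difference of -0.29, and less so by TMM-scaled counts, at -0.16 with a counting interval of -0.22 to -0.10. ZO-1 is known in forms with and without an alternatively spliced segment called the alpha domain, and the form without it is the one described in endothelial cells. The exon in question is exon 20 of 28 in Tjp1-202, is 240 bases long, a multiple of 3, and lies at chr7:65314093-65314332. It is shown 5′ to 3′ on the transcript strand, with the exon in capitals and 15 bases of each neighbouring exon in lower case, because the balance of its 2 forms is the splicing result for this gene.
Tjp1 exon 20: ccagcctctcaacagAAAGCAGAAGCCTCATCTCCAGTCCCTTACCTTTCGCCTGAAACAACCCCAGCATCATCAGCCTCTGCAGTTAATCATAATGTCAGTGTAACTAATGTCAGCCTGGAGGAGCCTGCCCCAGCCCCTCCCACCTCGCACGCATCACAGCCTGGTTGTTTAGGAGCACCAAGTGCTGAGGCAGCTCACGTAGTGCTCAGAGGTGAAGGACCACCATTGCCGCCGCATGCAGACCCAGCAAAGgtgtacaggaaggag

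The Tjp1 transcripts that span this exon were close to evenly split over it in one quantification and not in the other. In the first transcript table, Tjp1-202, which holds the exon, stood at 16.2 TPM in replicate 2 against 18.8 TPM in replicate 1. Transcripts that skip it, Tjp1-201 and Tjp1-207, summed to 15.5 TPM in replicate 2 and 17.2 TPM in replicate 1. The second transcript table, a separate quantification of the same libraries, gave 18.2 and 20.9 TPM with the exon in replicates 2 and 1, and 31.3 and 34.6 TPM without it. The order of the 2 forms was the same in both samples within the first table and within the second, and the order turned round between the tables. Tjp1-201 and Tjp1-202 differ at their ends too, so their estimates do not rest on exon 20 alone. The other 4 transcripts do not reach the exon, and held 51.0% of the gene's TPM in replicate 2 and 54.5% in replicate 1 on 320 and 361 counts, since short transcripts need few reads for a high TPM. Of these 4, the retained-intron Tjp1-204 stood at 10.6 TPM in replicate 2 against 17.0 TPM in replicate 1, on 68.5 and 97.8 counts. The second table had Tjp1-204 at 0 TPM in both samples. The complete coding forms of Tjp1, Tjp1-201 and Tjp1-202, together stood at 29.8 TPM in replicate 2 against 33.9 TPM in replicate 1, which was 46.2% and 42.8% of the gene's TPM. The log2 difference of that sum was -0.18, against -0.29 over all transcripts.

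Slc2a1 encodes GLUT1, the glucose carrier of the barrier, which is present in brain endothelium and, at lower levels, in astrocytes. The gene (ENSMUSG00000028645.11, chromosome 4, 119108711 to 119137983, plus strand) stood at 41.5 TPM on 2585 counts in replicate 2 and at 58.8 TPM on 3262 counts in replicate 1. Of the 10 genes it differed most between the samples, with replicate 2 lower at a log2 difference of -0.50 by TPM and of -0.46 by TMM-scaled counts, with a counting interval of -0.53 to -0.38. The neuronal glucose carrier gene Slc2a3 stood at 68.3 TPM in replicate 2 against 70.7 TPM in replicate 1, so that the Slc2a1 to Slc2a3 ratio was 0.608 in replicate 2 and 0.832 in replicate 1. In the second table that ratio was 0.861 in replicate 2 and 1.09 in replicate 1, where the order of the carriers turned round. Slc2a4, the insulin-responsive carrier of muscle and fat, was near the detection level, at 1.01 TPM in replicate 2 against 1.61 TPM in replicate 1.

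The TPM of Slc2a1 lay mainly in a pair of transcripts in the first table. Slc2a1-201, the single complete coding form, held 66.7% of the gene's TPM in replicate 2 and 67.0% in replicate 1. Slc2a1-204, annotated as a target of nonsense-mediated decay, the pathway that removes mRNAs with a premature stop, held 30.1% in replicate 2 and 28.7% in replicate 1.

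The second table gave Slc2a1-204 a like share, 30.1% in replicate 2 and 27.4% in replicate 1, but put Slc2a1-201 at 37.0% and 40.4%. The remainder there went to Slc2a1-203, a truncated transcript of 633 bases, with 31.4% of the TPM in replicate 2 and 32.3% in replicate 1 on 140 and 174 counts. In the first table that transcript held 1.13% in replicate 2 and 0.731% in replicate 1. The complete coding form was lower in replicate 2 in both tables, but not alone in this. It held 27.7 TPM in replicate 2 against 39.4 TPM in replicate 1 in the first, and 32.7 TPM against 48.6 TPM in the second. For Slc2a1-204 the same samples had 12.47 against 16.9 TPM in the first table and 26.64 against 32.96 TPM in the second. Slc2a1-203 had 27.75 against 38.84 TPM in the second table. In the first it went the other way, with 0.47 against 0.43 TPM on 5.68 and 4.59 counts.

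Slc7a5 encodes LAT1, which carries large neutral amino acids, L-DOPA and thyroid hormone, and Slc3a2 encodes its heavy-chain partner 4F2hc, which brings LAT1 and several other carriers to the membrane. Slc7a5 (ENSMUSG00000040010.10, chromosome 8, 121881150 to 121907694, minus strand) stood at 28.8 TPM on 2010 counts in replicate 2 and at 28.1 TPM on 1869 counts in replicate 1. Slc3a2 (ENSMUSG00000010095.13, chromosome 19, 8706882 to 8723369, minus strand) stood at 70.3 TPM on 2517 counts in replicate 2 and at 71.7 TPM on 2196 counts in replicate 1. Both genes were close to level between the samples, at log2 differences of 0.03 and -0.03 by TPM. There was 0.409 of Slc7a5 to 1 of Slc3a2 by TPM in replicate 2 and 0.392 in replicate 1. A further light chain gene that pairs with Slc3a2, Slc7a8, stood at 26.3 TPM in replicate 2 against 26.6 TPM in replicate 1, close to Slc7a5.

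Nearly all Slc7a5 TPM lay in the complete coding Slc7a5-201, with 89.2% in replicate 2 and 96.1% in replicate 1, and the rest in the retained-intron transcript Slc7a5-202 on 36.3 and 11.4 counts. Gm20388, a gene model that runs across the Slc7a5 locus on the opposite strand and shares no exon with it, differed far more between the samples, with 704 counts in replicate 2 and 191 counts in replicate 1. Slc3a2 was split over several forms, and the tables placed them differently. Slc3a2-201, the form with a coding sequence of 1578 bases, held 59.6% of the TPM in replicate 2 and 54.5% in replicate 1 in the first table, but 14.6% and 26.0% in the second. The shorter Slc3a2-207 held 22.9% in replicate 2 and 29.2% in replicate 1 in the first table, against 36.0% and 31.4% in the second. Slc3a2-208, truncated at 814 bases, held 0.427% and 0% in the first and 38.4% and 30.9% in the second. Transcripts that begin near the distal start of the gene held a small share in both, 16.8% in replicate 2 and 15.01% in replicate 1 in the first table, and 11.02% and 11.8% in the second.

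Slco1a4 encodes an organic anion transporter of rodent brain endothelium that moves steroid conjugates, thyroid hormone and drugs. The gene (ENSMUSG00000030237.14, chromosome 6, 141805440 to 141856199, minus strand) stood at 19.1 TPM on 1088 counts in replicate 2 and at 21.1 TPM on 1075 counts in replicate 1. Its TMM-scaled difference of -0.11 had a counting interval of -0.23 to 0.02. Its near relatives had few or no counts in the gene table. There Slco1a5 and Slco1a6 had between 1 and 1.03 counts per sample, and Slco1a1 was listed at 0 counts in both samples, where a count of 0 allows up to 3. In the second table Slco1a6 stood at 2.19 TPM in replicate 2 against 2.45 TPM in replicate 1. Slco1c1, the thyroxine carrier gene of barrier endothelium and astrocytes, was higher than Slco1a4, at 32.0 TPM in replicate 2 against 33.1 TPM in replicate 1. Slco1a4-203 was the leading form, with 55.0% of the TPM in replicate 2 and 57.3% in replicate 1. The truncated Slco1a4-202 held 31.02% in replicate 2 and 33.5% in replicate 1 in the first table, on 69.6 and 74.2 counts, but 7.204% and 20.03% in the second.

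Mfsd2a encodes the carrier that takes up docosahexaenoic acid as lysophosphatidylcholine and keeps vesicle transport across brain endothelium low. The gene (ENSMUSG00000028655.11, chromosome 4, 122946850 to 122961188, minus strand) stood at 16.3 TPM on 713 counts in replicate 2 and at 20.2 TPM on 811 counts in replicate 1. Replicate 2 was lower, at a log2 difference of -0.30 by TPM and of -0.31 by TMM-scaled counts, with a counting interval of -0.46 to -0.16. The complete coding Mfsd2a-201 held 93.3% of the TPM in replicate 2 and 96.7% in replicate 1. The sphingosine-1-phosphate exporter gene Mfsd2b, its relative in red blood cells and platelets, stood at 0.38 TPM in replicate 2 against 0.75 TPM in replicate 1.

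Of the pumps, Abcb1a encodes P-glycoprotein of the rodent barrier, which expels a broad range of drugs. The gene (ENSMUSG00000040584.8, chromosome 5, 8660077 to 8748575, plus strand) stood at 7.64 TPM on 829 counts in replicate 2 and at 9.56 TPM on 920 counts in replicate 1. Replicate 2 was lower, at a log2 difference of -0.31 by TPM and of -0.27 by TMM-scaled counts, with a counting interval of -0.41 to -0.14. Abcb1b, the second mouse P-glycoprotein gene, stood at 0.92 TPM on 38.2 counts in replicate 2 and at 1.18 TPM on 33.2 counts in replicate 1. Abcb1a was thus 8.30 times as high in replicate 2 and 8.10 times in replicate 1, ratios that rest on these few Abcb1b counts. In the second table Abcb1a was 5.49 times as high in replicate 2 and 6.63 times in replicate 1. The copies are alike in sequence, yet the deposited posterior SD of the Abcb1a count was 2.56 in replicate 2 and 2.12 in replicate 1, which is small beside its 829 and 920 counts. For Abcb1b, with far fewer counts, the posterior SD was 2.56 in replicate 2 and 2.1 in replicate 1. Abcb4, the phospholipid exporter gene beside them, stood at 1.61 TPM in replicate 2 against 1.69 TPM in replicate 1. Abcb1a-201, with 28 exons, held 98.2% of the gene's TPM in replicate 2 and 96.4% in replicate 1, and all of it in the second table.

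Abcg2 encodes the breast cancer resistance protein, a pump of the luminal endothelial membrane. The gene (ENSMUSG00000029802.13, chromosome 6, 58584523 to 58695676, plus strand) stood at 9.21 TPM on 352 counts in replicate 2 and at 8.79 TPM on 328 counts in replicate 1. The scaled difference of -0.02 had a counting interval of -0.24 to 0.20. Over all transcripts, Abcb1a and Abcg2 stood at near the same level, with ratios of 0.830 in replicate 2 and 1.09 in replicate 1. The second table had Abcg2 higher in both, with ratios of 0.698 and 0.683. Over complete coding transcripts alone, Abcb1a was the higher in both samples and both tables. Replicate 2 then had 7.5 TPM of Abcb1a against 5.75 TPM of Abcg2, and replicate 1 had 9.22 TPM against 5.91 TPM. The second table gave 10.4 against 8.38 TPM for replicate 2 and 12.9 against 8.72 TPM for replicate 1. Abcg3, a rodent relative of Abcg2, had 2 counts in replicate 2 and 5 counts in replicate 1.

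Abcg2 has 13 annotated transcripts, and RefSeq gives it 3 start sites. Each start window of 300 bases, 250 before and 50 after the start, is printed as given by RefSeq on GRCm38.p6, plus strand, because the transcripts fall on these starts unequally. Capitals mark matches on either strand to the TATA box (TATAAA), to the CCAAT box, to the GC box (GGGCGG) and to the core of the aryl hydrocarbon receptor element (GCGTG).
Abcg2 start 1, chr6:58584283-58584582: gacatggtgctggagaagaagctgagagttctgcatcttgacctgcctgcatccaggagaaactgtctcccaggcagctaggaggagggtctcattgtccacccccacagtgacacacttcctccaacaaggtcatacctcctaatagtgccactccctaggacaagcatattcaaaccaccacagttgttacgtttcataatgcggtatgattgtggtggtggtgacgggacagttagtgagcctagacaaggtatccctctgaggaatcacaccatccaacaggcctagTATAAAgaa
Abcg2 start 2, chr6:58596422-58596721: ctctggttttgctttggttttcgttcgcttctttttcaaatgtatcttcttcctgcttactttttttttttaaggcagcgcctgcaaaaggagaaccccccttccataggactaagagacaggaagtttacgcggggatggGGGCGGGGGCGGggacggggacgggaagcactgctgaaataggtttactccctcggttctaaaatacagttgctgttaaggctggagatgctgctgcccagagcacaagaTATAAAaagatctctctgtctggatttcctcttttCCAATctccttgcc
Abcg2 start 3, chr6:58640296-58640595: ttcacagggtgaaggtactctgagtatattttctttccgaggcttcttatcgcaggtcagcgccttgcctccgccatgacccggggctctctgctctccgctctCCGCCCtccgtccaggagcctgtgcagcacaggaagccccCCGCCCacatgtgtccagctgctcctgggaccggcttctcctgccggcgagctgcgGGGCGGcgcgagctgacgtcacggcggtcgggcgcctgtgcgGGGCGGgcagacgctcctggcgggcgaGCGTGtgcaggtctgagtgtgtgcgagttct

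Most Abcg2 RNA was assigned to transcripts that begin within 100 bases of the third start. Those 6 transcripts summed to 6.45 TPM in replicate 2 and 6.97 TPM in replicate 1, or 70.1% and 79.2% of the gene's TPM, and in the second table to 70.4% and 60.2%. Abcg2-202, the short complete coding form at that start, held 55.8% in replicate 2 and 61.1% in replicate 1. The second start has 1 transcript, Abcg2-201, at 0.62 TPM in replicate 2 against 0.53 TPM in replicate 1. Because it is 5717 bases long, that form took 22.4% of the gene's counts in replicate 2 and 18.4% in replicate 1. The first start was at 0 TPM in both samples in the first table and at 2.15 TPM in replicate 2 against 6.21 TPM in replicate 1 in the second, on 8.04 and 14.7 counts. The window of the third start was the richest in G and C, at 67.0%, the second was at 48.0%, and the median of all RefSeq windows was 52.7%. It held 28 CpG dinucleotides, 4 GGGCGG matches and no TATAAA, while the first held 3 CpG and the second 10 CpG, each with 1 TATAAA. Both TATAAA matches lie after the annotated start.

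**Figure D2:**
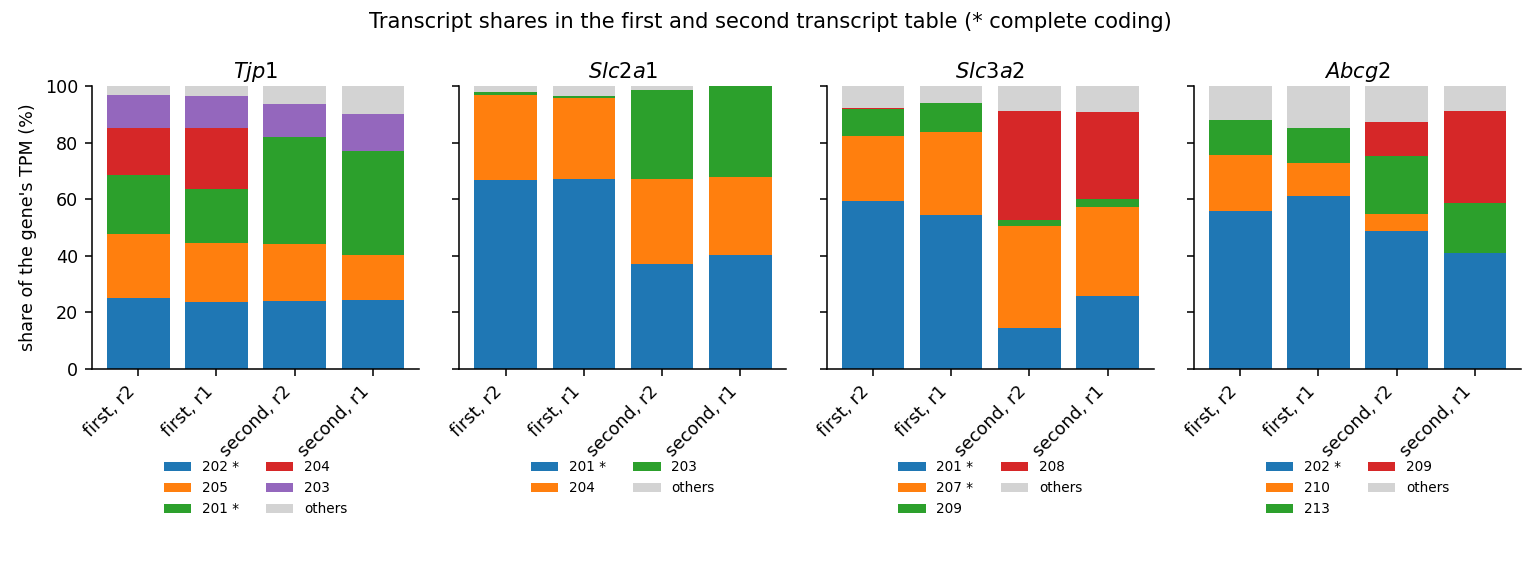
Stacked bars of each transcript's share of the gene's TPM in percent for Tjp1, Slc2a1, Slc3a2 and Abcg2, in the first and second transcript table, replicate 2 (r2) left of replicate 1 (r1). Slc2a1-203 and Slc3a2-208 appear mainly in the second table, where Slc2a1-203 held 31.4% in replicate 2 and 32.3% in replicate 1. The samples differ there for Abcg2-209, at 12.2% in replicate 2 and 32.2% in replicate 1, but on 4.57 and 13.5 counts. In the first table Abcg2-209 held 0% in both samples.

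The same motifs were counted in the 12 RefSeq windows that matched 9 of the 10 genes, with Slc7a5 unmatched. The GC box was present in 8 of the 12, and in 35.7% of all 32851 windows. CCAAT was present in 6 of 12 and in 37.4% of all, TATAAA in 3 of 12 and in 13.6%, and GCGTG in 6 of 12 and in 32.4%. TGTTTAC, a forkhead motif, was in 1 of 12, that of Abcb1a, and in 3.6% of all, and CTTTGAT, a TCF/LEF motif, was in 0 of 12 and in 3.7% of all. Both strands were searched and overlapping copies counted singly. Some genes have more than 1 window and these can overlap, so the 12 are not independent, and the Abcb1a window lies upstream of the GENCODE gene start.

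A gene was counted as apart where the samples differed by more than 0.32 on the log2 scale, a ratio of 5 to 4. By TPM, 1 of the 10 genes was apart, Slc2a1, which was lower in replicate 2. Of 18136 genes whose mean expected count reached 10, 14.3% were apart, 5.4% higher and 8.94% lower in replicate 2. Of the 12605 genes that reached 100 counts, as all 10 barrier genes did, 6.92% were apart, 2.34% higher and 4.58% lower. By TMM-scaled counts Slc2a1 was again the single gene apart, and 18.7% of all genes were, 8.4% higher and 10.3% lower. By the second transcript table, the genes apart were 3 of the 10, Slc2a1, Slco1a4 and Abcg2, each lower in replicate 2, and 17.5% of all genes were apart, 6.91% higher and 10.6% lower. In that table the counts of Slco1a4 were 1131 in replicate 2 and 1127 in replicate 1, and those of Abcg2 were 364 and 342. Over complete coding transcripts in that table, the differences of Slco1a4 and Abcg2 were -0.10 and -0.05. The median log2 difference of the 10 was -0.08, and that of all 18136 genes was -0.03. By direction, 4 genes were higher in replicate 2 and 6 were lower by TPM, and 57.8% of all genes were lower. By TMM-scaled counts 7 were lower, and 48.0% of all genes were. The counting interval excluded 0 for 5 of the 10, Cldn5, Tjp1, Slc2a1, Abcb1a and Mfsd2a, and for 21.6% of all genes and 25.6% of those with at least 100 counts, a share that grows with depth. By TPM, by counts scaled with TMM or DESeq2 size factors, in the second transcript table, by posterior mean TPM and over complete coding transcripts, all of them readings of the same 2 libraries, Tjp1, Slc2a1, Slco1a4, Abcb1a and Mfsd2a were lower in replicate 2. Cldn5 and Ocln were higher in each of these readings, and the signs of Slc7a5, Slc3a2 and Abcg2 varied. When libraries were scaled by their spike-in counts, the median over all genes was 0.16, and Slco1a4 turned to 0.04, still below that median. Slc2a1, at -0.31, was then no longer apart, and Cldn5, at 0.33, was the single gene of the 10 that was.

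**Figure D3:**
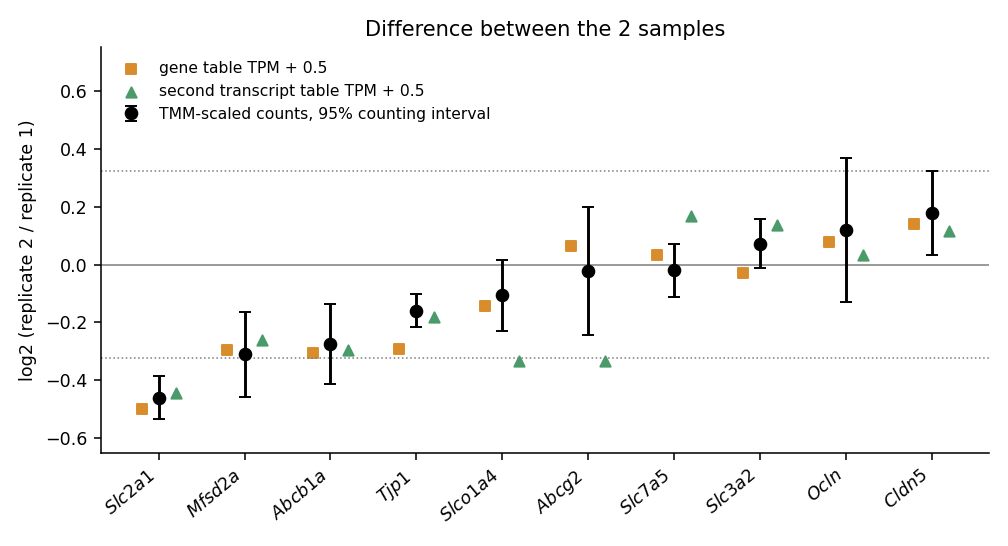
Log2 of replicate 2 over replicate 1 for each of the 10 genes, by TPM + 0.5 in the gene table (squares), by TMM-scaled counts with the 95% counting interval (circles with bars) and by TPM + 0.5 in the second transcript table (triangles). Dotted lines mark 0.32 on either side of 0, and Slc2a1 is the single gene past them in all 3, at -0.50, -0.46 and -0.44.

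Ratios between pairs of genes were taken within each sample. Slc2a1 stood at 1.41 times Cldn5 in replicate 2 and at 2.21 times in replicate 1, and Mfsd2a at 0.557 times Cldn5 in replicate 2 and at 0.758 times in replicate 1. Ocln differed less, at 0.159 times Cldn5 in replicate 2 and 0.165 times in replicate 1, on 297 and 251 Ocln counts. The log2 SD of that ratio over the samples was 0.04. It was 0.04 for Slc7a5 to Slc3a2 and 0.03 for Abcb1a to Abcb1b, so the closeness was not particular to the junction genes. Cldn5 stood at 3.73 times the general endothelial gene Pecam1 in replicate 2 and at 3.15 times in replicate 1, but in the second table at 2.32 times in replicate 2 and at 1.89 times in replicate 1. Slc2a1 was 4.13 times the monocarboxylate carrier gene Slc16a1 in replicate 2 and 5.62 times in replicate 1. These ratios are within a library and do not depend on how it was scaled, but they do depend on the quantification.

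Except for Tjp1, the mean level of each gene moved by more than its SD over the samples in the second table. Genes at large moved as well. Over 17771 genes the second table's gene sums were higher than the gene table's TPM by a median factor of 1.604 in replicate 2 and 1.588 in replicate 1, and the 10 genes ranged in this from 1.09 to 2.15. The lowest factors were those of Tjp1, at 1.18 in replicate 2 and 1.09 in replicate 1. The highest was that of Abcg2 in replicate 1, at 2.15, against 1.62 in replicate 2. Also high were those of Slc2a1, at 2.13 in replicate 2 and 2.05 in replicate 1, and of Slc3a2, at 2.11 and 1.88. Counting the complete coding transcripts alone, meaning those annotated with both ends of the coding sequence, narrowed the range to 1.18 to 1.68. On that measure Slc3a2 led at 63.1 TPM in replicate 2 against 63.4 TPM in replicate 1 in the first table, and at 88.0 TPM and 89.4 TPM in the second, with Tjp1 below it in both samples and both tables.

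**Figure D4:**
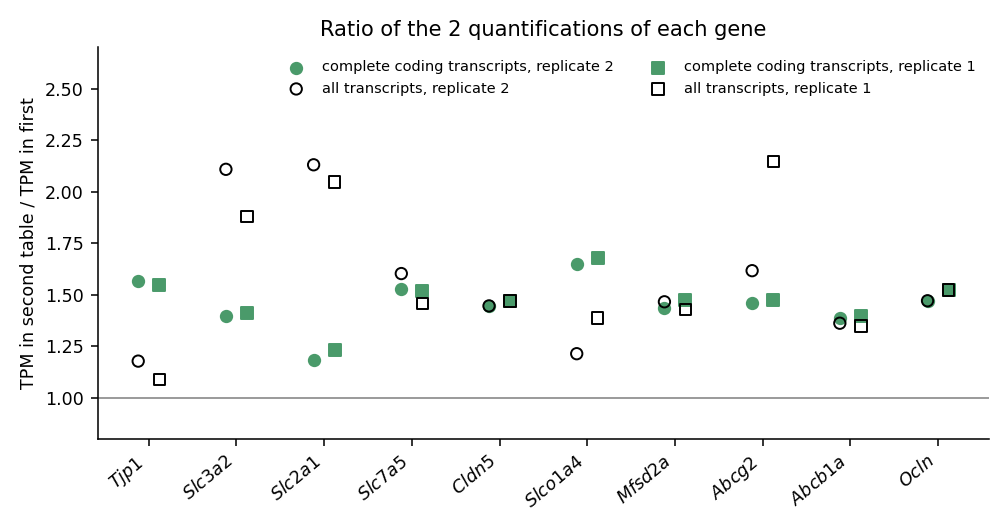
Ratio of TPM in the second transcript table to TPM in the first quantification for each of the 10 genes, over all transcripts (open symbols) and over complete coding transcripts (filled symbols), replicate 2 as circles and replicate 1 as squares. Filled symbols lie between 1.18 and 1.68, open ones between 1.09 and 2.15.

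Other genes of the barrier pathway were mostly present, and most were not apart between the samples. Of 21 further junction genes, 15 were detected, at a median of 7.87 TPM in replicate 2 and 8.35 TPM in replicate 1. Of the 18 with at least 10 counts, 4 were apart and higher and 1 was apart and lower in replicate 2. Of all genes that reached the same count, 5.4% were apart and higher and 8.94% apart and lower. These shares belong beside the counts of every list below. Ctnnb1, the beta-catenin gene, was highest at 262 TPM in replicate 2 against 251 TPM in replicate 1, and Cldn11, the claudin of myelin, followed at 64.6 TPM in replicate 2 against 51.5 TPM in replicate 1. Epithelial claudins were low, with Cldn1 at 1.57 TPM in replicate 2 against 0.85 TPM in replicate 1, and Cldn2 at 0.68 TPM in replicate 2 against 0.08 TPM in replicate 1, on 45 and 5 counts. Cldn3 had 7 counts in replicate 2 and 3 counts in replicate 1, and the ZO-3 gene Tjp3 had 6 and 4. Marveld2, the tricellulin gene, stood at 0.53 TPM in replicate 2 against 0.82 TPM in replicate 1, and its relative Marveld3 at 0.20 and 0.06 TPM.

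Of 20 further carriers and pumps of the barrier, 19 were detected, with 1 apart and higher and 2 apart and lower in replicate 2. The highest were the zinc carrier gene Slc39a10 at 98.6 TPM in replicate 2 against 101 TPM in replicate 1, and the pump gene Abcc5 at 91.4 TPM and 98.4 TPM. Slc38a5, a glutamine carrier gene, was the one higher in replicate 2, at 3.92 TPM against 2.08 TPM in replicate 1. Its counting interval, -0.0045 to 0.88, spanned 0. Atp10a, a phospholipid flippase gene of endothelium, stood at 2.74 TPM in replicate 2 against 4.76 TPM in replicate 1, and the pump gene Abcc4 at 3.26 TPM in replicate 2 against 5.07 TPM in replicate 1. For receptor uptake and vesicle genes, 10 of 11 were detected, with 0 apart and higher and 2 apart and lower. These were Tfrc, the transferrin receptor gene, at 31.02 TPM in replicate 2 against 39.2 TPM in replicate 1, and the caveolar coat gene Cavin2, at 3.62 TPM in replicate 2 against 5.41 TPM in replicate 1. By TMM-scaled counts Cavin2 was still apart, at -0.54, and Tfrc was not, at -0.19. Plvap, the gene of the diaphragm of leaky vessels, stood at 2.89 TPM in replicate 2 against 2.68 TPM in replicate 1.

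Of 16 genes of the Wnt pathway that induces the barrier, 15 were detected, 0 were apart and higher and 3 apart and lower in replicate 2, and the median log2 difference was -0.15. Of all genes with at least 10 counts, 5.4% were apart and higher and 8.94% apart and lower, with a median of -0.03. The ligand gene Wnt7b stood at 15.01 TPM in replicate 2 against 14.8 TPM in replicate 1, and Axin2, a general target of the pathway, at 14.2 TPM in replicate 2 against 15.7 TPM in replicate 1. The 3 lower genes encode transcription factors, Foxq1 at 0.91 TPM in replicate 2 against 1.41 TPM in replicate 1, Foxf2 at 2.22 TPM and 2.94 TPM, and Lef1 at 2.75 TPM and 3.58 TPM. By TMM-scaled counts the counting interval excluded 0 for Foxq1, at -0.99 to -0.21, and not for Foxf2 or Lef1.

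Cell type markers were read beside these results, since the cell mix of a dissection can differ. Snap25 and Slc17a7, genes of neurons and of excitatory neurons, stood at 1155 and 664 TPM in replicate 2 and at 1168 and 675 TPM in replicate 1. They mark neurons and not a region, so the label of cortex was not checked by them. All 16 endothelial markers were detected, and their summed level was 169 TPM in replicate 2 and 188 TPM in replicate 1, with 3 apart, Erg, Vwf and Egfl7, all lower in replicate 2. By TMM-scaled counts Erg and Egfl7 were still apart, at -0.49 and -0.42, and Vwf was not, at -0.20. Pericyte markers were detected for 9 of 10 and summed to 87.2 TPM in replicate 2 and 88.5 TPM in replicate 1, with 3 apart, Ndufa4l2 and Kcnj8 higher in replicate 2 and Abcc9 lower. The counting interval of Kcnj8, -0.05 to 1.14, spanned 0. Astrocyte markers, all 8 detected, summed to 1235 TPM in replicate 2 and 1370 TPM in replicate 1. Red blood cell markers, 4 of 5 apart and lower, summed to 727 TPM in replicate 2 and 1030 TPM in replicate 1. In the other direction, 6 of 7 oligodendrocyte markers were apart and higher in replicate 2, with sums of 1163 TPM in replicate 2 and 869 TPM in replicate 1. The choroid plexus list, whose epithelium makes its own barrier with Cldn1, Cldn2 and Cldn3, was apart and higher in replicate 2 for 6 of 9 genes. It summed to 209 TPM in replicate 2 and 30.8 TPM in replicate 1, mostly Ttr at 192 TPM and 19.5 TPM. The part of these markers in the differences of the 10 genes was not tested.

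**Figure D5:**
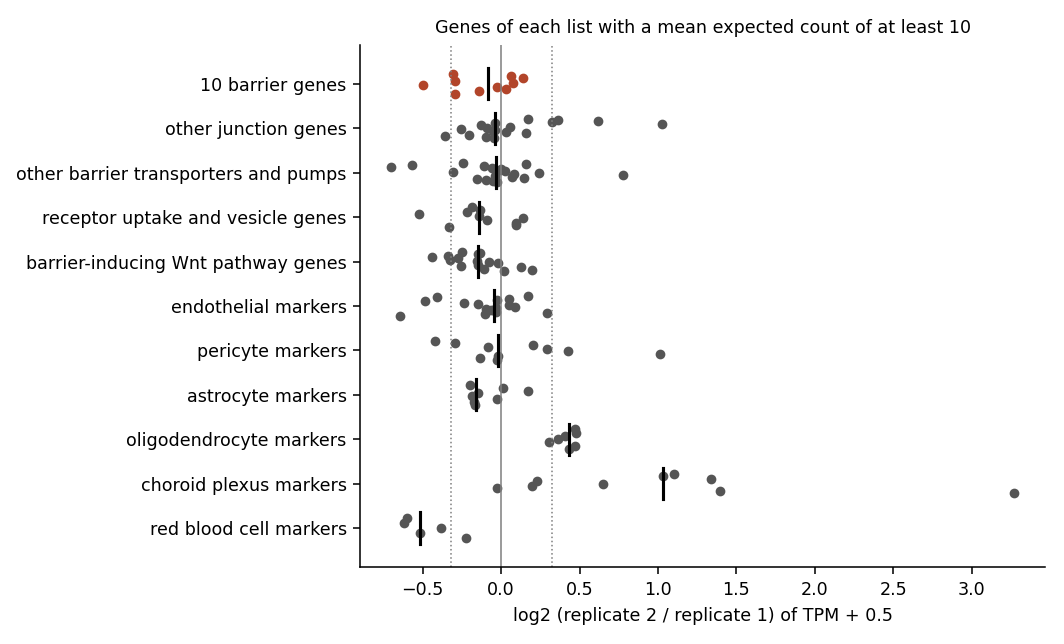
Log2 of replicate 2 over replicate 1 of TPM + 0.5 for each gene that reached a mean of 10 expected counts, by list, with a black bar at each list's median and dotted lines at 0.32 on either side of 0. The 10 barrier genes centre at -0.08 and endothelial markers at -0.05, while oligodendrocyte markers centre at 0.43, choroid plexus markers at 1.03 and red blood cell markers at -0.52.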

How the data were processed

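Total RNA-seq of 2 cortex samples was analysed from a gene table and 2 transcript tables per sample, all on mm10 and annotated with GENCODE M21, according to the deposited file lists. The gene table and first transcript table hold expected counts and TPM under column names that RSEM writes, and the second holds estimated counts and TPM under kallisto's column names, per the file headers. The deposited first tables also give a posterior SD of each count (a score), bounds of a TPM interval (a signal, level not stated) and each transcript's percent of the gene's TPM. Not given in the sources used here: program versions, aligner and strand setting. TPM is relative to all rows of a file, so abundant RNAs lower every other gene.

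Totals were 33263801 expected counts in replicate 2 and 30503944 in replicate 1, and 129524 and 131702 of these were spike-ins. Rows that name no gene, 26248 of them, held 3.01e-05% and 2.29e-05% of the counts and were left out. The 10 genes had 251 to 5062 counts per library.

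Each level is a mean TPM with its SD (n = 2). A difference is the log2 ratio of replicate 2 to replicate 1 after adding 0.5 to each TPM, which understates low genes, for genes whose mean expected count reached 10. Counting intervals are exact (Clopper-Pearson) 95% intervals of TMM-scaled counts. Expected counts were rounded for TMM factors (edgeR 4.0.16) and size factors (DESeq2 1.42.0) in R 4.3.3. No test between the samples was run, since each side holds 1 sample. Transcript shares use TPM. The rest used Python 3.11.15 with scipy 1.17.1, pandas 2.3.3, numpy 2.4.6 and matplotlib 3.10.9. The log2 differences and counting intervals were tested on simulated gene counts that held counting error alone. The other steps were not tested in this way. Exon sequences come from GENCODE M21 transcripts and start windows from RefSeq (GRCm38.p6).

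The 10 genes and the other lists were chosen with earlier results of these data known. Named from each other list were up to 4 genes of highest mean TPM, up to 2 with the largest difference, genes under 1 TPM in either sample, all sequence relatives, and transcripts with at least 10% of a gene's TPM in any table; not every such gene is printed, and some items are not reported here. Lef1, Abcc4, Abcc9, Plvap and Gm20388 fall outside this rule and were picked after their values were seen.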

Additional observations from a re-analysis of the deposited data

How the results depend on the processing

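All 10 genes were detected at 1 TPM or more under every alternative run. The median of the 10 levels, 23.9 TPM as reported, was 33.7 TPM in the second transcript table, 23.4 TPM by posterior means, 49.7 TPM when TPM was rescaled to protein-coding genes and 21.8 TPM over complete coding transcripts, and 23.8 to 23.9 TPM when either sample was left out. The number of genes apart by more than 0.32 on the log2 scale, 1 as reported, was 3 in the second table (Slc2a1, Slco1a4 and Abcg2) and 2 over complete coding transcripts (Slc2a1 and Mfsd2a), and 0 at folds of 1.5 and 2. Under spike-in scaling it was also 1, but the gene was Cldn5. The median log2 difference, -0.08 as reported, was -0.22 in the second table and 0.084 under spike-in scaling. Of all genes, 14.3% were apart at a minimum of 10 counts, 6.92% at 100 and 18.8% with none. The causes of these shifts were not tested. The setting with complete coding transcripts was chosen after seeing the data. Of the transcript shares, 21 of 27 moved by more than their SD over the samples in the second table. No paired analysis was possible because there was 1 group. Depth limits Ocln and Abcg2, the genes with the fewest counts and the widest counting intervals, and short transcripts.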

Other observations

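Other cells of the vessel wall and its surroundings were close to level between the samples. Of 5 smooth muscle markers 4 were detected, with a summed level of 17.4 TPM in replicate 2 against 16.6 TPM in replicate 1, and Acta2, the smooth muscle actin gene, was highest at 6.19 TPM in replicate 2 against 5.55 TPM in replicate 1. Perivascular fibroblast markers were detected for 5 of 6 and summed to 57.5 TPM in replicate 2 and 59.1 TPM in replicate 1, led by the collagen genes Col1a2 and Col1a1. All 6 microglia markers were detected, and they summed to 151 TPM in replicate 2 and 153 TPM in replicate 1. Among the genes of these lists with a mean of at least 10 counts, 1 was more than 0.32 apart on the log2 scale, Myh11, a myosin gene of smooth muscle, at 1.59 TPM in replicate 2 against 2.15 TPM in replicate 1.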
